A study of Mus musculus with 4 samples.

Results

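Of the 10 genes described here, 3 are grouped as inhibitors of nuclear factor kappa B (NF-kB) signalling (Nfkbia, Nfkbiz and Tnfaip3). The others are 3 genes of NF-kB subunits (Nfkb1, Nfkb2 and Relb), the adhesion molecule gene Icam1 and 3 genes of inflammatory chemokines (Cxcl1, Cxcl2 and Ccl2). All 10 were taken by gene symbol from a table of 51912 genes, and each symbol had 1 row. The list was chosen with earlier results of these data known. Messenger RNA was compared between 2 Robo mutant and 2 control libraries of pancreatic β cells from mice at postnatal day 13. Robo mutant mice were Robo1delta/delta; Robo2flx/flx and control mice Robo1+/+; Robo2+/+, and every mouse also carried Rosa26-lsl-H2B-mCherry/+ and Ucn3-Cre/+. The Cre is driven by Ucn3, which β cells express as they mature, and switches on a nuclear mCherry by which islet cells were sorted; Robo2 deletion depends on it, whereas the Robo1 allele is given as deleted in the whole animal. The labels do not say whether libraries came from separate animals, so the p-values measure only the spread between libraries, which may be technical.

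NF-kB factors are dimers that inhibitory proteins hold in the cytoplasm until signals from receptors for tumour necrosis factor, interleukin-1 or bacterial products trigger the inhibitors' breakdown. Freed dimers bind kappa B sites in DNA and switch on genes of defence and inflammation, and also genes of their own inhibitors, which ends the response. In islets this pathway is best known from exposure of β cells to inflammatory cytokines, and chemokines made there attract neutrophils and monocytes.

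The genes are grouped by their regulator, so the kappa B sequences of the promoters are shown first. RefSeq start sites (GRCm38.p6) were found for 6 members: Nfkbia, Tnfaip3, Nfkb2, Icam1, Cxcl1 and Cxcl2. No window was matched for Nfkbiz, Nfkb1, Relb and Ccl2. In windows of 250 bases before to 50 after a start, the kappa B consensus was searched on both strands; it occurred in 1480 of 32851 windows of all genes, or 4.51%. It was found in 5 of these 6 members, which had been listed because they are known targets, so this count is a description. A looser form that fixes only 3 G and 2 C (GGGNNNNNCC) overlaps the consensus and was present in 50.8% of all windows. The 250 bases before the start are printed 5′ to 3′ on the strand of the gene for the feedback inhibitors Nfkbia and Tnfaip3 and the neighbouring chemokine genes Cxcl1 and Cxcl2, whose promoters held the consensus, and for Icam1, whose window did not. Capitals mark consensus matches on either strand.
Nfkbia (chr12:55492648-55492897, minus strand): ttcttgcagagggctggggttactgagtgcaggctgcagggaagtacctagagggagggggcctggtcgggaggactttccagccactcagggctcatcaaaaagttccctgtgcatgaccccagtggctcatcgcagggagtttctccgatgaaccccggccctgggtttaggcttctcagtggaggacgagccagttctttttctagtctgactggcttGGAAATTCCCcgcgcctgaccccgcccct
Tnfaip3 (chr10:19015411-19015660, minus strand): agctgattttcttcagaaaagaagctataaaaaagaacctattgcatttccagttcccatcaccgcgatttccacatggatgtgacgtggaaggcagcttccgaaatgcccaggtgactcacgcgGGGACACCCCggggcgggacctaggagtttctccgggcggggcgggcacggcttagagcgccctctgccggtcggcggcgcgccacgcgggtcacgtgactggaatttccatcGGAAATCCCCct
Cxcl1 (chr5:90890995-90891244, plus strand): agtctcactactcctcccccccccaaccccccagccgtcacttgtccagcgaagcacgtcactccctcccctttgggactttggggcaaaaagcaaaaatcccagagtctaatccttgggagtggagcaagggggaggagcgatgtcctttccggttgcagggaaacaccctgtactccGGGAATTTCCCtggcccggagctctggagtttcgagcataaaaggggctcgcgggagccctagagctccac
Cxcl2 (chr5:90903649-90903898, plus strand): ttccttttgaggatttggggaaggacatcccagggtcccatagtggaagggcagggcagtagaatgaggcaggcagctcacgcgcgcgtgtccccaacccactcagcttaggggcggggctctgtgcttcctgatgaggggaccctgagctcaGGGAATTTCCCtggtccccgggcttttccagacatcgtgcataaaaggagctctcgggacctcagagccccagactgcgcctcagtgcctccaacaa
Icam1 (chr9:21015690-21015939, plus strand): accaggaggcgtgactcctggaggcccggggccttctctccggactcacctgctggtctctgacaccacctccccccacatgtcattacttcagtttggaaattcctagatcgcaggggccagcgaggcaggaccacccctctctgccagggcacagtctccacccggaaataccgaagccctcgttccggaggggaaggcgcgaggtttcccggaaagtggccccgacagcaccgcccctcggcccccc

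The match of Nfkbia lay 29 to 20 bases before its start. Tnfaip3 had a match 125 to 116 bases before this start and another 12 to 3 bases before it, and none at its second RefSeq start, inside the gene. Cxcl1 and Cxcl2 each held 1 place that matched on both strands, shifted by 1 base, which begins 71 bases before the start of Cxcl1 and 97 before that of Cxcl2. Nfkb2 had 3 RefSeq starts, and each of their windows held a match, of which the nearer pair of windows share 1. A match is a string of letters and not a measured binding site, and its absence in the Icam1 window says only that this string is not in it.

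**Figure D1:**
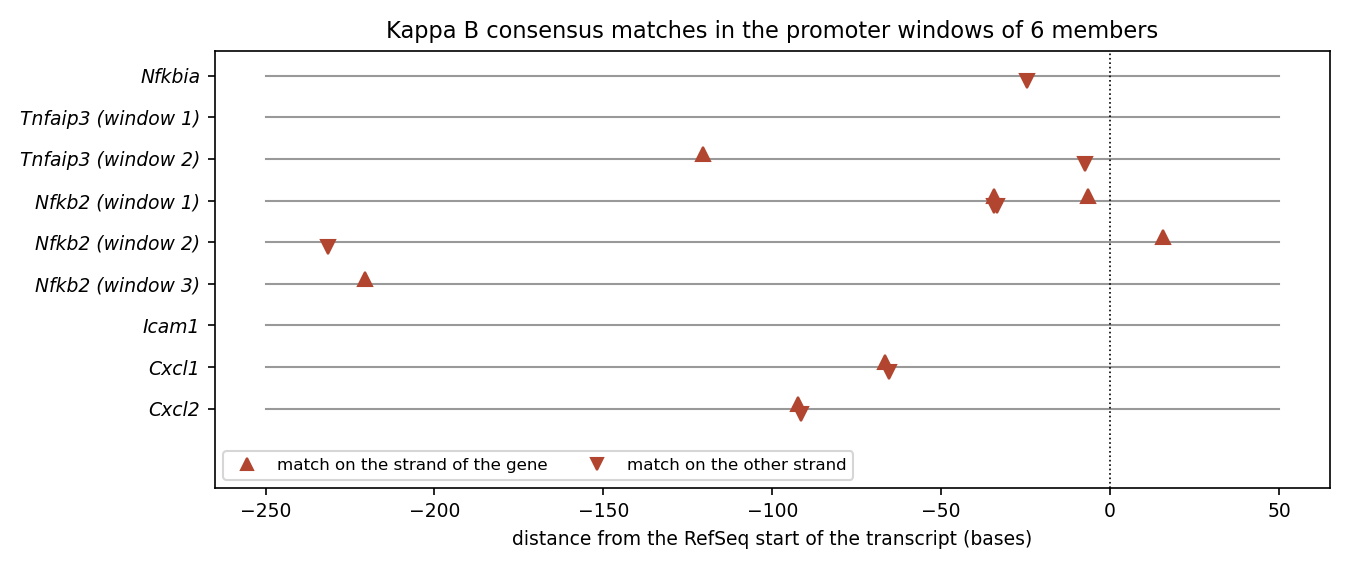
Kappa B consensus matches along the promoter windows of 6 members, with the distance from the RefSeq start in bases on the horizontal axis. Triangles mark matches on the strand of the gene (pointing up) or the other strand (pointing down); the Icam1 window and the second start of Tnfaip3, called window 1 in the plot, hold none.

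The libraries held 49593712 and 47788000 counts in Robo mutant cells and 48217557 and 38886129 in control cells. The targeted genes Robo1 (log2 change -1.82) and Robo2 (-1.73) had less transcript in each mutant library than in either control. Defining β-cell transcripts were abundant in every library, with Ins1 and Ins2 at 12.8% to 20.02% of counts. The first principal component carried 51.4% of the variance. Robo mutant 2 lay at 1 end of it (78.1) and Robo mutant 1 at the other (-52.6), with the controls between (-17.0 and -8.51). The mutant libraries were the least alike pair (Pearson r = 0.923), and each was closer to both controls (0.939 to 0.953). The 14 acinar markers of Robo mutant 2 summed to 48997 CPM (counts scaled to library size), against 596 to 5398 in the other libraries. Hormone transcripts of other islet cells were also present. Gcg stood at 18548 and 23483 CPM in mutant 1 and 2, against 23043 and 11445 CPM in control 1 and 2. Sst was at 2144 and 803 CPM in the mutants and 792 and 711 CPM in the controls. A count was present for 17751 and 17937 genes in the mutant libraries and for 19919 and 20918 in the controls. Of 16517 genes tested with edgeR's quasi-likelihood test, 0 had an adjusted p under 0.05 and 1025, or 6.21%, an unadjusted p under 0.05, while DESeq2 called 151 at an adjusted p under 0.05, or 0.914%.

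Across the members, the inhibitor genes were higher in mutant cells, the subunit genes lay close to their control levels and Icam1 was lower. With edgeR 0 of the 9 tested members had an adjusted p under 0.05, against 0% of all genes. At an unadjusted p under 0.05 there were 2, Tnfaip3 and Nfkbia, both higher in the mutant. Among all tested genes this share was 6.21%, with 1.99% higher in the mutant. The median log2 change of the 9 was 0.69, against -0.013 over all tested genes. That median is the value of Cxcl1, whose log2 change was -1.001 without Robo mutant 1, so it is unstable. Of the 9, 5 were higher and 4 lower, where 48.7% of all tested genes were higher. Both mutant libraries lay above both controls in Nfkbia, Tnfaip3 and Cxcl2 and below both in Icam1 and the untested Ccl2, whereas the genotypes did not overlap in 36.6% of all tested genes. An exact permutation test of 2 libraries against 2 cannot give a two-sided p below 0.333.

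**Figure D2:**
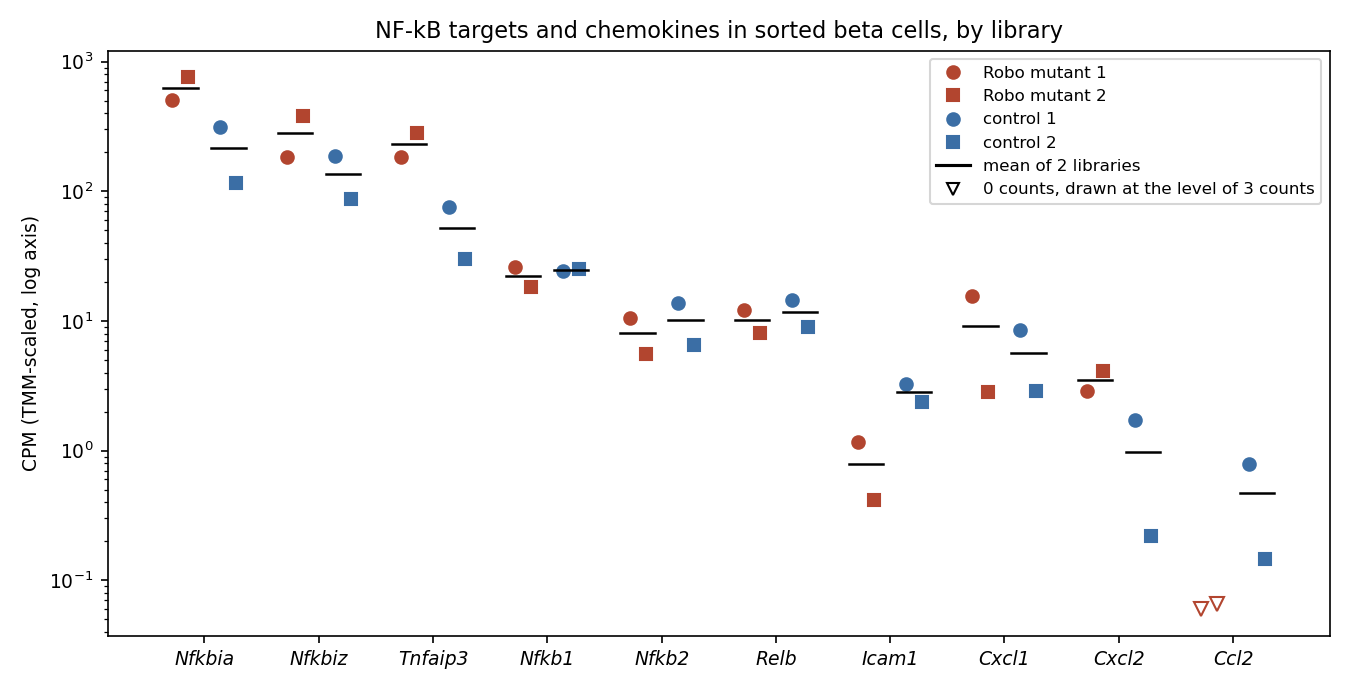
Level of each member in each library, in CPM on a log axis; points are libraries, black lines are means of 2 libraries and open triangles are libraries with 0 counts, drawn at the level of 3 counts. The mutant points of Nfkbia and Tnfaip3 lie above both control points, those of Icam1 and Ccl2 below, and the points of Nfkb1, Nfkb2 and Relb overlap.

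Tnfaip3 (chromosome 10, 19000910 to 19015657, minus strand, GRCm38) encodes a ubiquitin-editing enzyme that shuts off signalling from the receptors. It stood at 184 and 282 CPM in Robo mutant 1 and 2, against 75.2 and 29.8 CPM in control 1 and 2. Both mutant libraries were well above the higher control. The level was 4.44-fold higher in mutant cells, 2.15 ± 0.52 on the log2 scale (SE; edgeR, unadjusted p = 0.011, adjusted p = 0.680). It was the 1 member that DESeq2 called (adjusted p = 0.000224), whereas limma on log2(CPM + 1) gave adjusted p = 0.780. The controls differed 2.52-fold between themselves, and the log2 change lay between 1.63 (without control 2) and 2.97 (without control 1) when single libraries were left out.

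Nfkbia (chromosome 12, 55489410 to 55492647, minus strand) encodes IκBα, the inhibitor that keeps dimers in the cytoplasm and is rapidly remade after each activation. Its levels were 505 and 756 CPM in mutant 1 and 2, against 313 and 116 CPM in control 1 and 2. The genotypes did not overlap, but the gap between the nearest libraries was smaller than the gap between the controls. The mean was 630 ± 178 CPM in mutant and 214 ± 139 CPM in control cells (SD, n = 2 each), 2.94-fold higher in the mutant, with a log2 change of 1.56 ± 0.53 (SE). Neither edgeR (unadjusted p = 0.038, adjusted p = 0.764) nor DESeq2 (adjusted p = 0.553) called it. The log2 change was 2.44 without control 1 and 1.01 without control 2, and the unadjusted p in edgeR was 0.059 without control 2 and 0.072 without Robo mutant 2.

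Nfkbiz (chromosome 16, 55811375 to 55838899, minus strand) encodes an atypical nuclear IκB protein that modulates NF-kB at its target genes. The gene is grouped with the inhibitors by family. Its levels were 185.1 and 379 CPM in mutant 1 and 2, against 185.4 and 87.0 CPM in control 1 and 2. Mutant 1 and control 1 were level, so the genotypes overlapped by a narrow margin, and under the other 3 scalings mutant 1 was just above control 1. The log2 change was 1.05 ± 0.52 (SE; edgeR, adjusted p = 0.900), and 0.44 without Robo mutant 2.

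The inhibitors shared 1 order of libraries, apart from the near tie of Nfkbiz: mutant 2 highest, then mutant 1, control 1 and control 2. Summed, they stood at 873 and 1417 CPM in mutant 1 and 2, against 573 and 233 CPM in control 1 and 2. The 20 listed immediate early and dissociation-response genes, which cells switch on within minutes of a stimulus or of handling, gave the same order, at 14474 and 17477 CPM in the mutants against 11587 and 5137 CPM in the controls. Of these 20, 18 were higher in mutant cells, where 48.7% of all tested genes were. The list median log2 change was 0.86, against -0.013 over all tested genes. Nr4a1 (1.95) and Atf3 (1.48) were among the higher ones, and Hspa1a (-1.85) and Hspa1b (-1.26) were lower. At an adjusted p under 0.05 edgeR called 0 of the 20 and DESeq2 called 3, Atf3 as higher and Hspa1a and Hspa1b as lower. The 12 myeloid markers summed to 84.7 and 86.6 CPM in the mutants against 63.4 and 30.4 CPM in the controls. All 11 tested ones were higher, against the same 48.7% of all tested genes, with 0 called. Ptprc, the pan-leukocyte marker, was at 7.16 and 8.92 CPM in the mutants against 5.16 and 0.589 CPM in the controls, and Adgre1, the macrophage marker, at 4.96 and 1.32 against 2.15 and 0.711 CPM. Of these 12 markers, only Mrc1 and Cd68 were at 0 in a library. The leukocyte integrin gene Itgam, outside this list, was at 0 in both controls. The part of either list in the inhibitor levels was not tested.

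**Figure D3:**
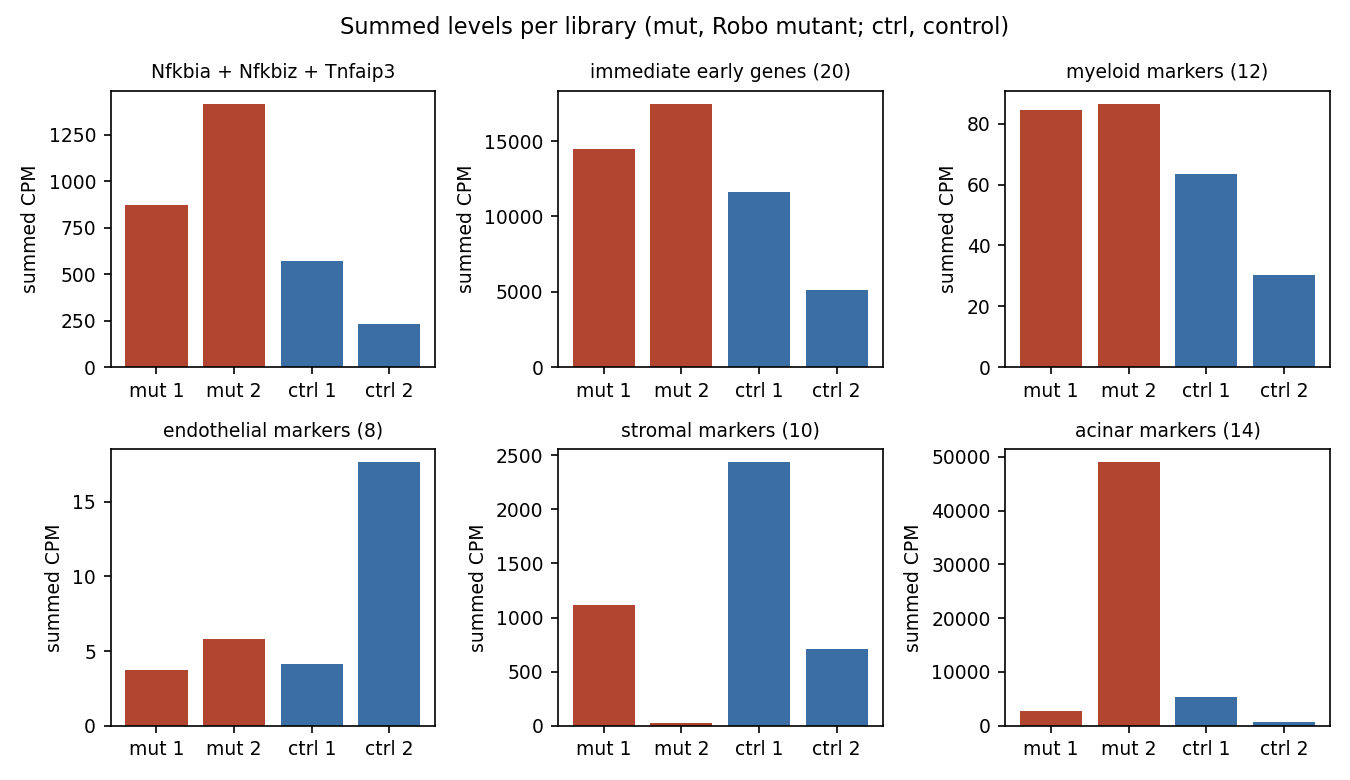
Summed CPM of the 3 inhibitor genes, of the immediate early list and of 4 marker lists in each library, with bars from 0, mutant libraries on the left. The inhibitors and the immediate early genes fall in the same order of libraries, endothelial markers are highest in control 2 and acinar markers in Robo mutant 2.

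The subunit genes differed by less than the spread between libraries. Nfkb1 (chromosome 3, 135584655 to 135691547, minus strand), whose precursor protein is processed into a DNA-binding subunit of the classical dimer, was at 26.2 and 18.2 CPM in mutant 1 and 2, against 24.4 and 24.99 CPM in control 1 and 2. The control values lay between the mutant values, and the log2 change was -0.15 ± 0.25 (SE). Nfkb2 (chromosome 19, 46304320 to 46312385, plus strand), the corresponding gene of the alternative branch, was at 10.5 and 5.60 CPM against 13.7 and 6.50 CPM in the controls. Its log2 change was -0.32 ± 0.55 (SE), with mutant 1 between the 2 controls. Relb (chromosome 7, 19606217 to 19629438, minus strand), the partner of Nfkb2 in that branch, stood at 12.2 and 8.09 CPM in the mutants against 14.5 and 8.95 CPM in the controls, a log2 change of -0.21 ± 0.41 (SE). Each of these had an edgeR adjusted p of 1.00, and the sign was positive without Robo mutant 2 for all 3 (0.086, 0.060 and 0.063) and without control 1 for Nfkb2 (0.31) and Relb (0.18). Exons of Nfkb2 share 6.52% of their bases with Psd and 11.6% with AC114539.1 on the other strand, and unstranded reads there cannot be told apart.

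Icam1 (chromosome 9, 21015985 to 21028817, plus strand) encodes the cell surface ligand of leukocyte integrins. It had 58 and 19 counts in mutant 1 and 2 (1.16 and 0.418 CPM), against 157 and 96 counts in control 1 and 2 (3.28 and 2.35 CPM). Both mutant libraries were below both controls. The level was 3.56-fold lower in the mutant, a log2 change of -1.83 ± 0.88 (SE), which edgeR (unadjusted p = 0.099, adjusted p = 0.898) and DESeq2 (adjusted p = 0.828) did not call. The change stayed negative without each library in turn, between -2.75 and -1.28. Of its exon bases, 11.7% are shared with the antisense gene Gm47079, which had at most 33 counts.

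Icam1 is also expressed by endothelial and stromal cells, and the levels of their markers differed between libraries. The 8 endothelial markers summed to 3.74 and 5.80 CPM in mutant 1 and 2, against 4.13 and 17.7 CPM in control 1 and 2. Cdh5 and Kdr were at 0 in both mutant libraries, Kdr also in control 1. The 10 stromal markers summed to 1115 and 20.4 CPM in the mutants against 2437 and 712 CPM in the controls; Pdgfra, Pdgfrb, Col1a1 and Rgs5 were at 0 in Robo mutant 2. In bulk libraries fewer cells of a type and less RNA per cell cannot be told apart, and the part of these cells in the Icam1 difference was not tested.

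Among the chemokine genes, Cxcl2 was higher in both mutant libraries, Cxcl1 varied more within genotypes than between them, and Ccl2 was detected in controls only. Cxcl1 and Cxcl2 (chromosome 5, 90891241 to 90893115 and 90903871 to 90905938, plus strand) encode neutrophil attractants. Cxcl2 had 143 and 186 counts in mutant 1 and 2 (2.86 and 4.09 CPM), against 83 and 9 counts in control 1 and 2 (1.73 and 0.221 CPM). The controls differed 7.85-fold, more than the genotypes. The change was 3.54-fold, log2 1.82 ± 1.15 (SE; edgeR, unadjusted p = 0.181, adjusted p = 0.941), with 3.96 without control 1 and 1.00 without control 2.

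Cxcl1 had 772 and 129 counts in mutant 1 and 2 (15.4 and 2.84 CPM), against 406 and 117 counts in control 1 and 2 (8.48 and 2.87 CPM). Mutant 1 was the highest library, and mutant 2 and control 2 were level as the lowest. Under RLE scaling control 2 was just below mutant 2 (2.841 and 2.856 CPM). The log2 change of 0.69 ± 0.99 (SE; edgeR, adjusted p = 1.00) was -1.001 without Robo mutant 1. Cxcl1 and Cxcl2, neighbours with the same match in their promoters, were thus both lowest or nearly lowest in control 2. They differed in Robo mutant 2, where Cxcl2 was at its highest CPM and Cxcl1 was level with control 2.

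Ccl2 (chromosome 11, 82035571 to 82037453, plus strand), the gene of a monocyte attractant, had 0 counts in both mutant libraries, against 38 and 6 counts in control 1 and 2. A count of 0 allows up to 3 counts, or 0.0600 and 0.0659 CPM in mutant 1 and 2. Taking 3 counts per mutant library, Ccl2 was at least 7.47-fold lower there, against a mean of 0.470 CPM in controls, a bound that rests mostly on control 1 (2.34-fold against control 2 alone). Ccl2 did not reach 10 counts in 2 libraries and was not tested. Its receptor gene Ccr2 had 66 and 0 counts in the mutants against 0 and 15 in the controls.

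**Figure D4:**
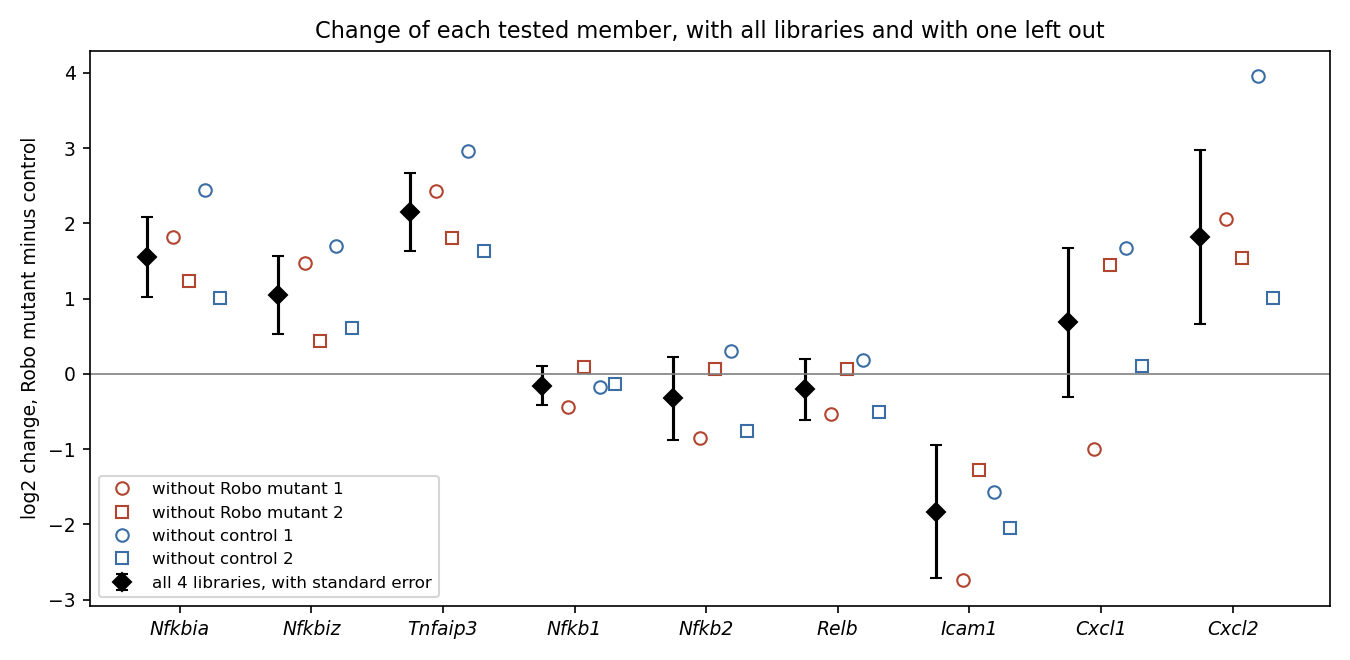
Log2 change of each tested member, mutant minus control, with its standard error (diamonds, all 4 libraries) and with 1 library left out (open symbols). The changes of Nfkbia, Nfkbiz, Tnfaip3 and Cxcl2 stay above 0 and that of Icam1 below 0, whereas the subunits and Cxcl1 take both signs.

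Levels were also divided by exon length, the union over all annotated transcripts. That union was 12061 bases for Nfkb1 and the whole gene span for Cxcl1 and Cxcl2, so comparisons between genes are approximate. The level in CPM per kilobase of Nfkbia was the highest of the members in both genotypes, 391 in mutant and 133 in control cells. Nfkbiz followed at 56.2 in mutant and 27.1 in control cells, and Tnfaip3 at 32.2 in mutant and 7.26 in control cells, on the same scale. The library ranges of Nfkbiz and Tnfaip3 overlapped in mutant cells (36.9 to 75.5 and 25.4 to 39.1) and did not in control cells (17.3 to 36.9 and 4.12 to 10.4). Cxcl1, Relb, Nfkb1 and Nfkb2 formed a lower tier, from 1.76 to 4.87 in mutant and from 2.05 to 3.03 in control cells, in which neighbours in the order had overlapping library ranges. Icam1 was at 0.181 in mutant and 0.646 in control cells, and Cxcl2 at 1.68 in mutant and 0.472 in control cells. In control cells the library ranges of Icam1 (0.540 to 0.752) and Cxcl2 (0.107 to 0.838) overlapped, and in mutant cells the range of Cxcl2 (1.38 to 1.98) lay above that of Icam1 (0.0958 to 0.266) and overlapped that of Nfkb2.

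The wider pathway was followed in 74 further genes, of which 65 were tested, 34 higher and 31 lower in mutant cells, with a median log2 change of 0.017. edgeR called 0 of them at an adjusted p under 0.05, and 10 had an unadjusted p under 0.05, 5 in each direction, against 6.21% of all tested genes, 1.99% higher and 4.21% lower. DESeq2 called 4 of the 65, against 0.914% of all tested genes. These were N4bp1 and Tlr2 as higher, and Tnfrsf1b and Vcam1, both at 0 in the mutant libraries, as lower. Tnfrsf1b and Vcam1 passed the count filter only through their control libraries. They are also among the 5 lower genes at an unadjusted p under 0.05, so their p-values add no support to either count.

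Of 11 other subunit and inhibitor genes, 8 were higher and 3 lower. Nfkbid, the gene of a nuclear IκB protein related to that of Nfkbiz, was at 21.6 and 25.1 CPM in the mutants against 10.5 and 4.29 CPM in the controls (log2 change 1.66, edgeR unadjusted p = 0.024). N4bp1, which restrains NF-kB signalling, was at 62.3 and 70.0 CPM against 36.0 and 40.4 CPM in the controls (log2 change 0.79; DESeq2 adjusted p = 0.018, edgeR 0.680). In both genes all mutant values were above all control values. Rela, the main activating subunit, had a log2 change of 0.15 ± 0.13 (SE), with both mutant libraries slightly above both controls.

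Among ligands, Tnf, which encodes the cytokine that activates this pathway, had 380 and 246 counts in mutant 1 and 2, against 65 and 9 counts in control 1 and 2. Both mutant libraries were above both controls (log2 change 3.03 ± 1.03, SE; edgeR unadjusted p = 0.037, adjusted p = 0.764; DESeq2 adjusted p = 0.175). Tnf is made mainly by myeloid cells, whose markers had their lowest sum in control 2, as Tnf did; their part was not tested. Il1b was not higher (log2 change -0.83), and Ltb was at 1.54 with mutant 2 between the controls.

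The 12 receptor genes were divided evenly. Tlr2, a receptor for bacterial lipoproteins, was at 76.4 and 71.9 CPM in the mutants against 33.7 and 46.2 CPM in the controls (log2 change 0.89; DESeq2 adjusted p = 0.029, edgeR 0.680). Its libraries agreed within each genotype better than those of the inhibitors. Tnfrsf1b, a receptor for tumour necrosis factor, had 0 counts in both mutant libraries against 148 and 40 in the controls, at least 32.3-fold lower with 3 counts per mutant library (15.6-fold against control 2 alone). Il1r1, the interleukin-1 receptor and the most abundant of these genes, was at 501 and 735 CPM against 590 and 734 CPM in the controls, a log2 change of -0.10.

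Of 21 kinase and adaptor genes 10 were higher and 11 lower, and 8 were lower without overlap, against 20.4% of all tested genes. Tbk1 (-0.56) and Traf6 (-0.47), a kinase and an adaptor that carry the signal from receptors, had the smallest p (edgeR, unadjusted 0.021 and 0.022), and the most abundant, Irak1, was at 0.02 on the same log2 scale.

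Other targets lay on both sides, 6 of 15 higher. Vcam1, an adhesion molecule gene induced with Icam1, had 0 counts in both mutant libraries against 203 and 39 in the controls, at least 41.3-fold lower with 3 counts per mutant library (15.2-fold against control 2 alone), and DESeq2 called it (adjusted p = 0.0039). Vcam1 and Tnfrsf1b belong to 304 tested genes at 0 in both mutant libraries, all of which had an edgeR unadjusted p under 0.05. These genes passed the count filter only through their control libraries, so their p-values in either method add no support to the counts. By contrast, 21 tested genes were at 0 in both controls. Birc2, the gene of a ubiquitin ligase of the receptor complex, had a log2 change of -0.49, and Irf1, the most abundant target, one of 1.10 with 207 and 379 CPM in the mutants against 206.5 and 67.5 CPM in the controls.

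Of the other 12 tested chemokine genes 5 were higher and 7 lower, and 0 had an unadjusted p under 0.05. Cx3cl1, the most abundant, was at 39.6 and 23.6 CPM in the mutants against 37.8 and 28.9 CPM in the controls, and Cxcl10 had a log2 change of 0.79 ± 0.73 (SE). Of the leukocyte integrin genes whose products bind Icam1, Itgam had 170 and 81 counts in the mutants and 0 in both controls. It was at least 38.0-fold higher with 3 counts per control library (DESeq2 adjusted p = 0.0016, edgeR 0.680). Itgam passed the count filter only through the mutant libraries, so these p-values add no support to the counts. Itgal had 167 and 357 counts in the mutants against 0 and 16 in the controls. Itgb2, their common partner subunit, was at 0 in mutant 1 and had 177 counts in mutant 2, against 202 and 35 in the controls.

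**Figure D5:**
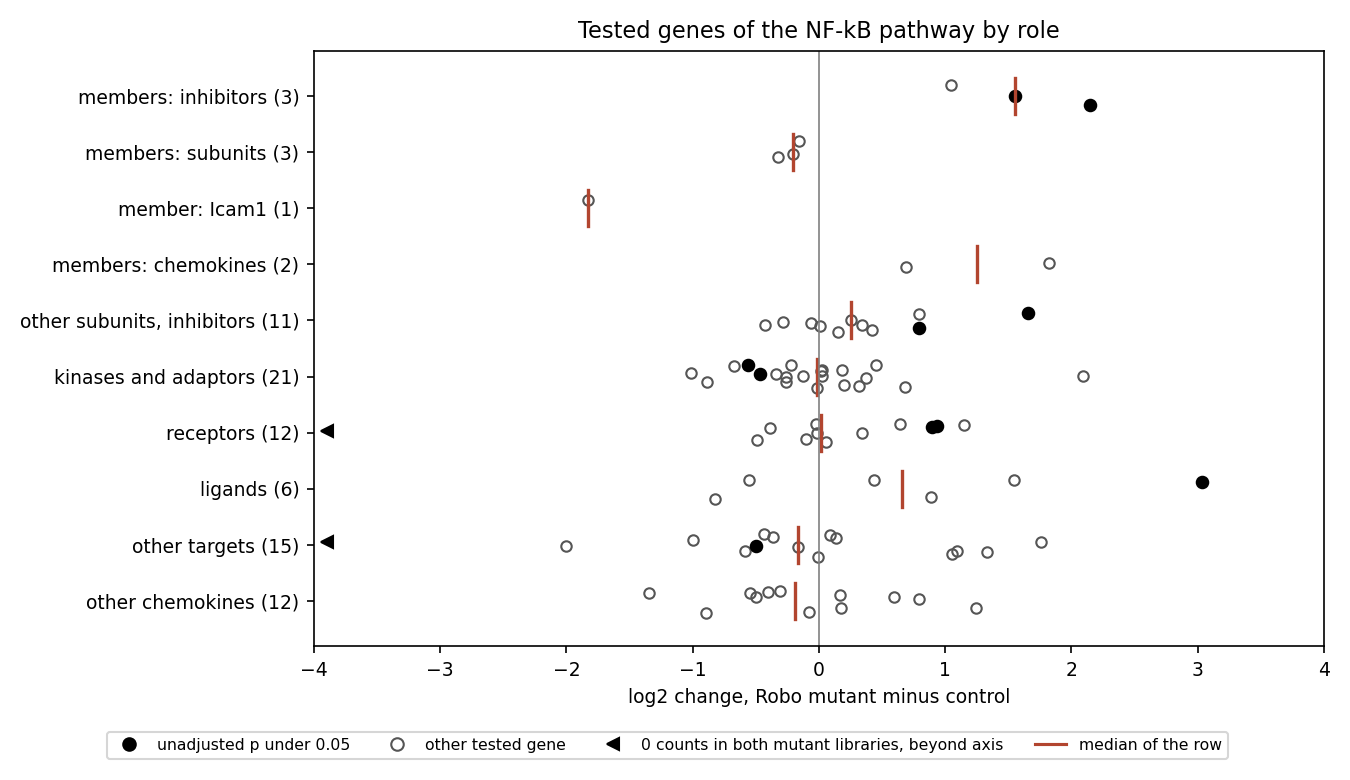
Log2 change, mutant minus control, of each tested gene of the pathway by role, members at the top, with the number tested in brackets. Filled points had an unadjusted p under 0.05, arrowheads are Tnfrsf1b and Vcam1, beyond the axis, and red lines are medians; the inhibitor members lie between 1.05 and 2.15, Icam1 is at -1.83, the chemokine members and the ligands have medians of 1.26 and 0.66, and the medians of the other roles lie between -0.21 and 0.25.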

How the data were processed

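Per the labels' protocols, islets were isolated on a density gradient, mCherry+ cells were sorted, and full-length cDNA from low-input RNA was made with SMART-Seq v4 and tagmented with Nextera XT, which does not mark strand. The submitters' processing notes name bcl2fastq 2.20.0.422, STAR 2.5.3a, RSEM 1.3.0, edgeR 3.16.5 and GRCm38; no source used here gives their roles or the annotation release. The deposited values are estimated counts per gene in whole numbers. The table's name calls them normalized, but totals differ between libraries, so an earlier rescaling is possible; counting limits are then approximate. No other sample's column was present (0 columns).

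Counts were rounded, 16517 genes passed a minimum of 10 counts in 2 or more libraries, and edgeR 4.0.16 (R 4.3.3) was run with TMM factors, glmQLFit and glmQLFTest, two-sided, Benjamini-Hochberg adjusted over all tested genes, threshold 0.05. The standard error is the log2 change divided by the square root of the F statistic. CPM use TMM-scaled totals. DESeq2 1.42.0, limma 3.58.1, other scalings and filters, and fits without single libraries were alternatives. The fit was tested on simulated data. A count of 0 was taken to allow 3 counts per library, for counting error only.

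Positions and exon lengths (union over all annotated transcripts) came from GENCODE M21 on GRCm38, which held 51633 of the 51912 identifiers. With BLAST 2.17.0, 0 other genes matched a member's longest transcript at 95% identity over 80% of its length. Promoter sequences are RefSeq's. Replicate numbers follow accession order. The members, lists and tests were chosen with earlier results of these data known. Named genes are all members, Robo1, Robo2, and the most abundant or defining markers. From each list, genes were named among the 4 of smallest p and the most abundant one. Some genes that met this rule, such as Fos, Tax1bp1 and Ccl28, were left out. Markers named for being at 0, and Rela, Ccr2 and Itgb2 where a statement needed them, were chosen with their values seen. Samples were grouped by the genotype label.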

Additional observations from a re-analysis of the deposited data

How the results depend on the processing

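Of 99 values of the 9 tested members under the alternatives, 92 kept their direction and their side of the threshold, 1 passed it and 6 changed sign. DESeq2 called 151 genes where edgeR called 0, 4 of the 65 pathway genes where edgeR called 0, and Tnfaip3 (log2 change 2.16). Of the 4 pathway genes, Tnfrsf1b and Vcam1 passed the count filter only through their control libraries, so their calls add no support. With single libraries left out, edgeR called 0 to 1 genes, and the number with an unadjusted p under 0.05 ran from 181 to 3038, against 1025; with 3 libraries the fit assumes that the lone library varies like the other genotype. In those fits the log2 change ran from -0.44 to 0.086 for Nfkb1, from -0.85 to 0.31 for Nfkb2, from -0.53 to 0.18 for Relb and from -1.001 to 1.67 for Cxcl1, and the pathway median from -0.021 to 0.047. With total counts as the only scaling the pathway median was -0.044, while the median of all genes was -0.071. Of the 10 members, 5 had genotypes that do not overlap as reported and 6 under RLE, upper-quartile or total-count scaling, the difference being Nfkbiz. The cause of these differences was not tested. No paired analysis was possible because the labels carry no replicate numbers that groups share. Depth limits Icam1, Cxcl2 and Ccl2, which had at most 186 counts in every library.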

Other observations

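Several low chemokine, cytokine and receptor genes were absent from 1 library and present in the other library of the same genotype. Ccl22 had 0 and 358 counts in Robo mutant 1 and 2, against 159 and 0 counts in control 1 and 2. Il1a, the gene of an interleukin-1 cytokine, had 0 and 235 counts in the mutants against 102 and 27 in the controls. These genes were picked for this pattern after their values were seen. The pattern of 0 counts in 1 library and at least 50 in the other of its genotype was counted in each list. It was found in 888 of all 16517 tested genes, or 5.38%. So it was in 3 of 12 tested chemokine genes outside the members, 4 of 65 pathway genes and 0 of 9 tested members. Of the 4 tested genes of chemokine receptors and integrins that bind Icam1, 2 had it.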
